A study of Mus musculus with 6 samples.

Results

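Genes that mark neuroectoderm or neurons, 9 in all, were followed in mouse embryonic stem cells after partial loss of the mRNA of Rsl24d1, whose protein takes part in building the large ribosomal subunit. The markers were Zic1, Sox1, Pax6, Neurod1, Nes, Elavl3, Tubb3, Map2 and Ncam1, chosen by gene symbol, and all 9 were found among the 22332 symbols of the count table. The cells were of the CGR8 line, a mouse embryonic stem cell line, grown on gelatin in medium with FBS (serum) and LIF, the cytokine that maintains self-renewal. In both groups the cells had been transfected with siRNA, either a non-targeting pool (siCtrl, n = 3 libraries) or one directed at Rsl24d1 (siRSL24D1, n = 3 libraries), with collection 48 hours later. Sequencing was of total RNA after removal of rRNA. The series' design text calls the triplicates independent without naming separate cultures, so p-values measure the spread between these libraries. Levels are CPM, a gene's count relative to the library's total, scaled between libraries by TMM. Before any comparison, siCtrl 3 and siRSL24D1 2 stood apart from the other libraries of their groups: the chi-square of counts per degree of freedom was 2.62 between siCtrl 1 and siCtrl 2 and 13.5 to 17.8 against siCtrl 3, and it was 4.0 between siRSL24D1 1 and siRSL24D1 3 and 11.6 to 14.2 against siRSL24D1 2. The comparison asks which of these lineage transcripts differ when Rsl24d1 is reduced.

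Neuroectoderm is the embryonic layer that gives rise to the nervous system. Its earliest cells express transcription factors of the Sox, Pax and Zic families and the filament protein nestin. As cells become neurons, proneural factors of the bHLH class, with Neurod1 as a late member, are followed by neuron-restricted tubulin, microtubule-associated proteins, RNA-binding proteins of the Elavl family and adhesion molecules. In pluripotent cells many of these genes are silent or expressed at a low level, held there in part by the repressor REST and by Polycomb complexes.

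Of the 9 markers 5 were higher in siRSL24D1 (Neurod1, Tubb3, Zic1, Nes and Ncam1), 1 was lower (Elavl3), and 3 did not pass the test (Sox1, Pax6 and Map2). All 9 passed the filter on low counts, Zic1 only through siRSL24D1, with 11 to 17 counts there and 0 to 5 in siCtrl. Zic1 could therefore not have been called lower, and its place in these counts adds nothing to its own values. Among all 15084 genes tested, 41.2% passed the test, 21.2% in the higher and 20.0% in the lower direction (edgeR quasi-likelihood test, Benjamini-Hochberg adjusted p under 0.05). The median log2 fold change of the markers was 0.48, against 0.02 over all genes tested. At least 2-fold higher were Neurod1, Tubb3 and Zic1, against 2.33% of all genes tested, and no marker was at least 2-fold lower, against 1.86%. The groups did not overlap for 6 of the 9 markers, against 53.0% of all genes tested. The genes that did not pass included the early neural plate factors Sox1 and Pax6, whose values are given with their intervals.

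**Figure D1:**
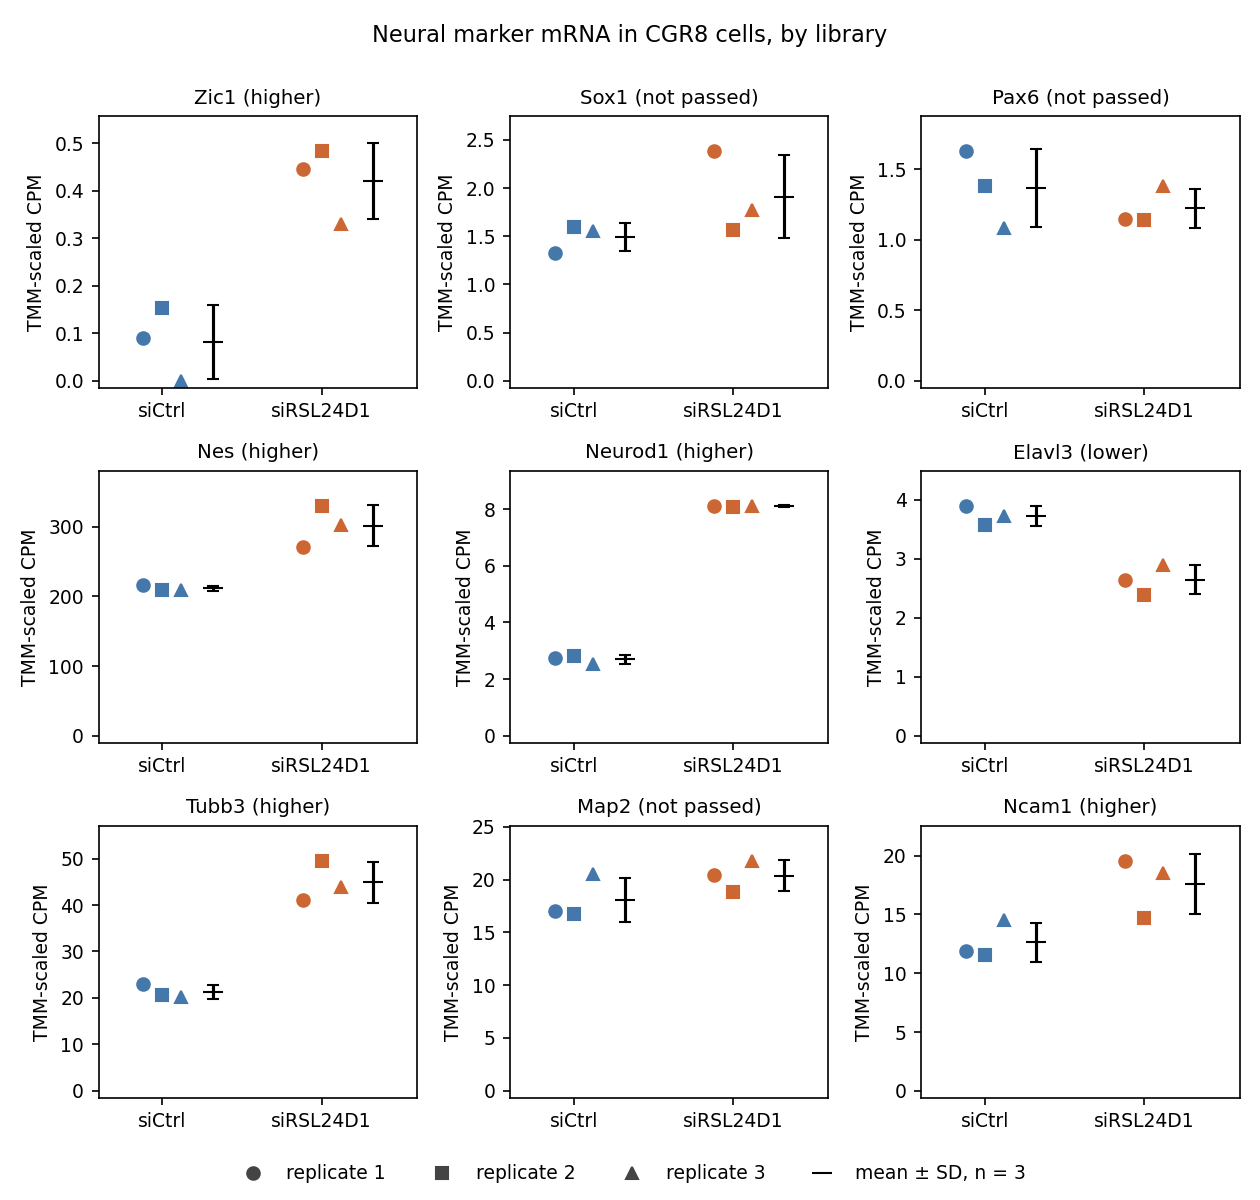
TMM-scaled CPM (vertical axes, linear from 0) of the 9 markers in each siCtrl (blue) and siRSL24D1 (orange) library, with symbols for the replicate number and black bars for the mean ± SD of 3 libraries. Neurod1 lay at 2.52 to 2.83 CPM in siCtrl and at 8.07 to 8.12 CPM in siRSL24D1, while the groups overlapped for Sox1, Pax6 and Map2.

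Promoter sequence is shown for Neurod1 and Tubb3, the neuronal genes that rose at least 2-fold with ample counts, and for Elavl3, the marker that fell. The sequences are from RefSeq (GRCm38.p6), which held a promoter for 8 of the 9 markers. They are given 5′ to 3′ on the strand of the gene and end before the first exon in both RefSeq and GENCODE M21. Capitals mark the E-box CANNTG, the short word bound by bHLH factors such as NEUROD1, searched on both strands. The Neurod1 stretch lies at chr2:79456752-79456886 (minus strand), that of Tubb3 at chr8:123411303-123411423 (plus strand) and that of Elavl3 at chr9:22052024-22052273 (minus strand).
Neurod1: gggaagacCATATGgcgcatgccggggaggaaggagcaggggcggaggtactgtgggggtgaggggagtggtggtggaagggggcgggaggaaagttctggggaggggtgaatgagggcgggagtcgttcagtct
Tubb3: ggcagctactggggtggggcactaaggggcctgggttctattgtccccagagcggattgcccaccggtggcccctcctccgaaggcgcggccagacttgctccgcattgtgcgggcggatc
Elavl3: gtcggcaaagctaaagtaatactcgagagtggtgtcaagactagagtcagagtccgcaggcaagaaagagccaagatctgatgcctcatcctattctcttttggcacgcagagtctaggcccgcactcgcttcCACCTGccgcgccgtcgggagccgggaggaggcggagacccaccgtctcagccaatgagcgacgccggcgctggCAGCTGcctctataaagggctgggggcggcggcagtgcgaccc

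In the 250 bases before the RefSeq start, Elavl3 held 2 E-boxes (CACCTG and CAGCTG), Neurod1 held 1 (CATATG) and Tubb3 had no match. Of 32851 RefSeq promoter windows of that length, 66.2% held at least 1 CANNTG and 13.0% held CAGCTG. The word TATAAA was present in the Elavl3 window, 33 bases before the start, and in 12.4% of all windows. The windows held 22 (Neurod1), 21 (Tubb3) and 20 (Elavl3) CG dinucleotides, against a median of 6 over all windows. All 3 were above that median, the markers that rose and the one that fell alike. These matches describe letters and are not measured binding sites.

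Little of the markers' sequence is shared with other genes. The share of each marker's 31-base words that also occurs in transcripts of another gene (GENCODE M21) was highest for Neurod1 at 6.56%, shared mainly with Cerkl, then Elavl3 at 3.76%, shared mainly with the overlapping model Gm49318, and Tubb3 at 3.21%, shared mainly with its relative Tubb6. The other 6 markers were at 2.06% or less. Exons of antisense models overlap those of Neurod1, Map2 and Ncam1. The strand setting of the counting is not given in the sources used here, so such reads cannot be told apart.

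Of the markers 4 are transcription factors, of which Neurod1 and Zic1 rose and Sox1 and Pax6 did not pass. Neurod1 (chromosome 2, 79452521 to 79456751, minus strand, GRCm38), a bHLH factor of differentiating neurons and endocrine cells, had 2.75, 2.83 and 2.52 CPM in siCtrl 1 to 3, against 8.12, 8.07 and 8.12 CPM in siRSL24D1 1 to 3. Every siRSL24D1 library lay above every siCtrl library, and the siRSL24D1 libraries were close together, at 8.10 ± 0.03 CPM (SD, n = 3). They held 255, 283 and 270 counts, and this SD is smaller than counting error at such numbers, so it is no measure of precision. Neurod1 rose 3.0-fold, a log2 fold change of 1.58 with a standard error of 0.09 (adjusted p = 2.6e-05). The totals behind these values were 269 counts in siCtrl and 808 in siRSL24D1.

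Zic1 (chromosome 9, 91358058 to 91365810, minus strand), a zinc finger factor of the neural plate border and dorsal neural tube, was near the limit of detection. It had 3, 5 and 0 counts in siCtrl 1 to 3, or 0.0907, 0.154 and 0 CPM, and 14, 17 and 11 counts in siRSL24D1 1 to 3, or 0.446, 0.485 and 0.331 CPM. The groups did not overlap, and the 0 in siCtrl 3 allows up to 0.0879 CPM (3 counts). The pooled counts, 8 against 42, gave a ratio of 5.25 with an exact 95% counting interval from 2.43 to 12.9, which covers counting error only. The fit gave a log2 fold change of 2.34 (standard error 0.59, adjusted p = 0.0141), and it was 3.13 without siCtrl 2 (adjusted p = 0.0178), 1.74 without siCtrl 3 (adjusted p = 0.0148) and 1.62 without both siCtrl 3 and siRSL24D1 2 (adjusted p = 0.0225). The direction and the call of Zic1 held in those runs, where it could not have been called lower, while its size rested on single counts.

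Sox1 (chromosome 8, 12395295 to 12400126, plus strand), an early marker of neural commitment, was at 1.33, 1.598 and 1.55 CPM in siCtrl and at 2.39, 1.57 and 1.77 CPM in siRSL24D1. The high value was that of siRSL24D1 1, and the groups overlapped. The log2 difference was 0.35 with a 95% interval from -0.10 to 0.79 (adjusted p = 0.185), so a change of the size seen for Nes is within the interval. Pax6 (chromosome 2, 105668900 to 105697364, plus strand), a paired-box factor of forebrain, eye and spinal cord progenitors, was at 1.63, 1.38 and 1.08 CPM in siCtrl and at 1.147, 1.14 and 1.38 CPM in siRSL24D1. Its log2 difference was -0.16 with an interval from -0.62 to 0.30 (adjusted p = 0.559). For Pax6 a rise as large as that of Neurod1 or Tubb3 lies outside the interval.

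Nes (chromosome 3, 87971078 to 87980451, plus strand) encodes nestin, the intermediate filament protein of neural progenitors, which other dividing cells also express. It was the most abundant of the 9 markers, at 216, 209 and 209 CPM in siCtrl and at 271, 330 and 302 CPM in siRSL24D1. All siRSL24D1 libraries were above all siCtrl libraries, and siRSL24D1 2 was the highest. Nes rose 1.42-fold, a log2 fold change of 0.51 with a standard error of 0.07 (adjusted p = 0.000731).

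Another 3 markers belong to the cytoskeleton or the surface of neurons. Tubb3 (chromosome 8, 123411424 to 123422015, plus strand), the beta tubulin used as the standard marker of young neurons, was at 22.9, 20.6 and 20.1 CPM in siCtrl and at 41.1, 49.6 and 44.0 CPM in siRSL24D1. It rose 2.12-fold with no overlap between the groups (log2 fold change 1.08, standard error 0.08, adjusted p = 6.1e-05). Map2 (chromosome 1, 66175273 to 66442583, plus strand), a microtubule-associated protein of dendrites, was at 17.0, 16.7 and 20.5 CPM in siCtrl and at 20.5, 18.9 and 21.8 CPM in siRSL24D1. The groups overlapped because siCtrl 3, at 20.52 CPM, stood above its fellow controls and above siRSL24D1 1, at 20.48 CPM, and siRSL24D1 2. The lowest of its group, siRSL24D1 2, was still above siCtrl 1 and siCtrl 2. The log2 difference of Map2 was 0.17 with an interval from -0.04 to 0.39 (adjusted p = 0.172).

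Ncam1 (chromosome 9, 49502136 to 49798925, minus strand), the neural cell adhesion molecule, was at 11.9, 11.5 and 14.5 CPM in siCtrl and at 19.6, 14.7 and 18.5 CPM in siRSL24D1. The groups did not overlap, but the highest control and the lowest siRSL24D1 library were close. Ncam1 rose 1.39-fold (log2 fold change 0.48, standard error 0.13, adjusted p = 0.0176). The call was lost without siCtrl 1 (adjusted p = 0.054), siCtrl 2 (adjusted p = 0.0695), siRSL24D1 1 (adjusted p = 0.0681) or siRSL24D1 3 (adjusted p = 0.0622).

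The libraries that were unusual for Map2 and Ncam1 were also unusual in their long transcripts. Genes with at least 6 kb of exon took 17.9%, 18.2% and 20.5% of the counts in siCtrl 1 to 3 and 20.8%, 18.9% and 20.95% in siRSL24D1 1 to 3. The share was high in siCtrl 3 and low in siRSL24D1 2 for their groups, and its part in the values of Map2 and Ncam1 was not tested. It was also higher in siRSL24D1 1 and siRSL24D1 3 than in any siCtrl library. A correction for exon length can thus remove a difference between the groups as well as one between libraries. Map2 has 10.18 kb of exon and Ncam1 7.06 kb. Nes, Elavl3 and Pax6 also have at least 6 kb of exon, and they did not all follow the share. Nes was highest in siRSL24D1 2, at 330 CPM. Pax6 was the lowest control in siCtrl 3, at 1.08 CPM, and also the lowest of its group in siRSL24D1 2, at 1.14 CPM. Elavl3 was lowest in siRSL24D1 2, at 2.39 CPM, and lay between the other controls in siCtrl 3. After a correction of each library for exon length, Ncam1 was at 0.39 (adjusted p = 0.00515) and Map2 at 0.04 (adjusted p = 0.638). With siCtrl 3 and siRSL24D1 2 both left out, Ncam1 was at 0.68 (adjusted p = 4.3e-06) and Map2 at 0.31 (adjusted p = 0.00179), and Map2 also passed without siCtrl 3 alone, at 0.26 (adjusted p = 0.0274).

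Elavl3 (chromosome 9, 22015005 to 22052023, minus strand), an RNA-binding protein of neurons, also known as HuC, was the marker that went the other way. It was at 3.90, 3.56 and 3.72 CPM in siCtrl and at 2.64, 2.39 and 2.89 CPM in siRSL24D1. Every siRSL24D1 library lay below every siCtrl library. Its log2 fold change was -0.50 (standard error 0.12, adjusted p = 0.0106), and across 17 alternative settings it ran from -0.59 to -0.43 (adjusted p = 0.00337 to 0.0434).

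**Figure D2:**
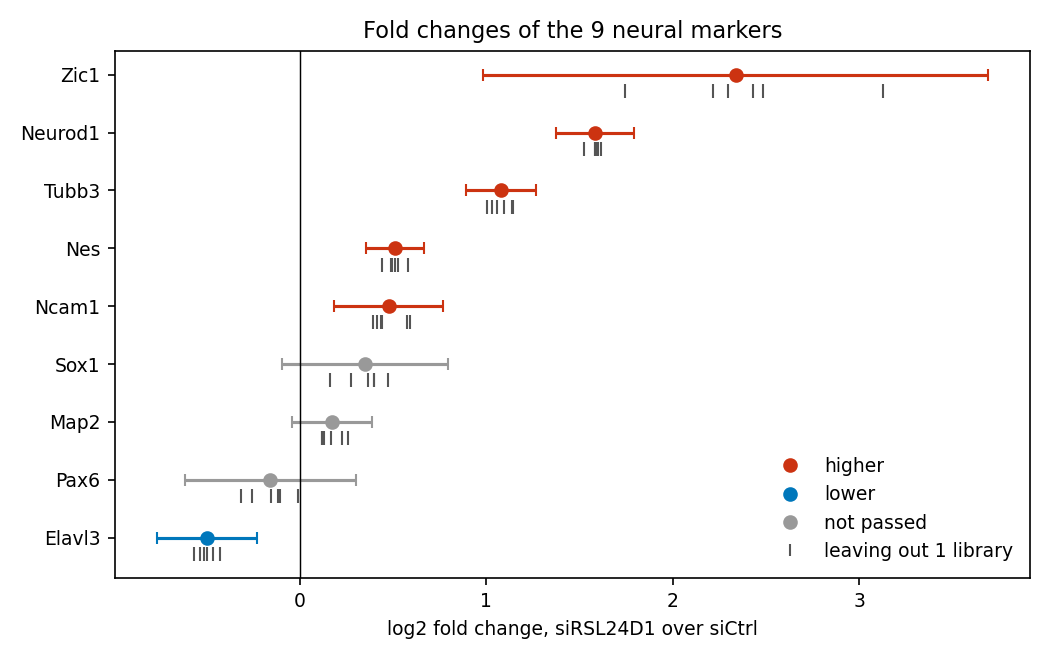
Log2 fold change of each marker, siRSL24D1 over siCtrl (points, coloured by the test), with 95% intervals as bars and the 6 values obtained by leaving out 1 library as ticks beneath. Zic1 has the widest interval, from 0.98 to 3.69, and Elavl3 is the marker whose interval lies below 0.

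Levels of different genes were compared per kb of exon. In siCtrl the order was Nes at 34.5 ± 0.66 CPM per kb (SD, n = 3), Tubb3 at 11.4 ± 0.79, Ncam1 at 1.79 ± 0.23, Map2 at 1.78 ± 0.21, Neurod1 at 0.989 ± 0.059, Elavl3 at 0.541 ± 0.025, Sox1 at 0.309 ± 0.030, Pax6 at 0.198 ± 0.040 and Zic1 at 0.0144 ± 0.0137. Ncam1 and Map2 overlapped, and the other neighbours in this order did not. In siRSL24D1 Neurod1, at 2.97 ± 0.01 CPM per kb (an SD below counting error), stood above Ncam1 at 2.49 ± 0.36 and Map2 at 2.003 ± 0.145 in every library. Ncam1 and Map2 overlapped there too, and Sox1, at 0.395 ± 0.088, and Elavl3, at 0.383 ± 0.036, did as well. The order depended on the length used: per kb of the longest coding transcript, Map2 was at 2.89 CPM per kb in siCtrl and 3.26 in siRSL24D1, above Ncam1 at 1.92 and 2.68 and above Neurod1 at 0.989 and 2.97. The 9 markers together took 0.0263% to 0.0275% of all counts in siCtrl and 0.0372% to 0.0425% in siRSL24D1, most of it from Nes. In bulk RNA, more cells that express a marker and more RNA per cell cannot be told apart.

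**Figure D3:**
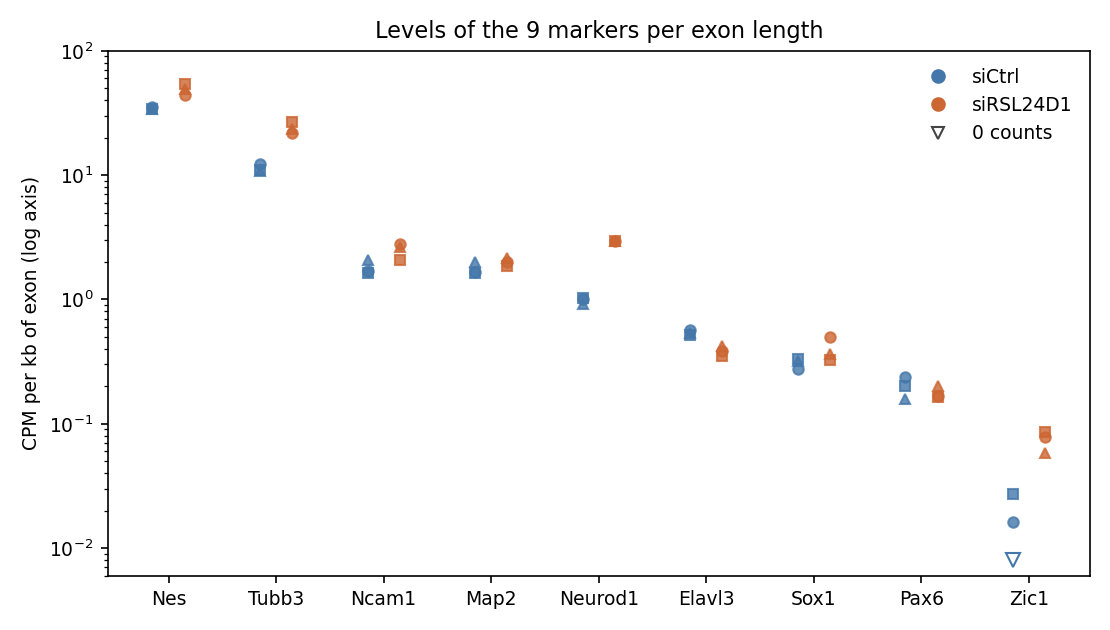
Level of each marker per kb of exon (vertical log axis, TMM-scaled CPM per kb) in the siCtrl (blue) and siRSL24D1 (orange) libraries, with replicate symbols 1 circle, 2 square and 3 triangle, and an open triangle for the 0 counts of Zic1 in siCtrl 3. Nes and Tubb3 stand above the rest in both groups, and Neurod1 moves from below Map2 in siCtrl to above it in siRSL24D1 on this length, but not per kb of the longest coding transcript.

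The same libraries still carried the transcripts of embryonic stem cells, though bulk RNA cannot show whether the same cells held both kinds of marker. All 10 pluripotency markers of the list were detected in every library, at a summed 3316 to 3694 CPM in siCtrl and 2898 to 3045 CPM in siRSL24D1. Of them 5 fell, 1 (Zfp42) rose and 4 did not pass, and only 3 fell in the runs without siCtrl 2 or siRSL24D1 3, while 2 rose without siCtrl 3. The share of the list that passed was 60%, against 41.2% of all genes tested. Tdgf1, a Nodal co-receptor, was at -0.62, Nanog at -0.49 and Dppa5a at -0.47 on the log2 scale, while Zfp42 was at 0.24. Rsl24d1 itself fell from 97.9 to 103 CPM in siCtrl to between 52.1 and 55.6 CPM in siRSL24D1 (log2 fold change -0.89, adjusted p = 2.0e-05). Library totals ran from 30943635 to 35214000 estimated counts.

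Relatives of the markers did not all share their direction. Zic1 rose from almost no counts, whereas Zic2 fell from 10.5 to 11.6 CPM in siCtrl to between 6.88 and 7.13 CPM in siRSL24D1 (log2 fold change -0.67, adjusted p = 0.000334), and Zic5 fell by 0.59 (adjusted p = 0.000655). Zic4, the divergent neighbour of Zic1, was listed at 0 counts in every siCtrl library and was not tested.

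Elavl2, a neuronal relative of Elavl3, fell by 0.28 (adjusted p = 0.00351). Elavl4 was at -0.32 (adjusted p = 0.112), and Elavl1, the broadly expressed HuR, was at -0.01 (adjusted p = 0.854), with a sign that changed in 4 of 17 settings. The other beta tubulins lay between -0.67 and 0.22 on the log2 scale, against 1.08 for Tubb3. Tubb5, the main isotype here at 2034 to 2165 CPM in siCtrl, fell by 0.22 (adjusted p = 0.00921), Tubb2b fell by 0.24 (adjusted p = 0.0243, and 0.0794 to 0.0903 in the 4 runs without 1 library that ended its call), and Tubb2a did not pass (adjusted p = 0.993). Tubb4a, at -0.67 (adjusted p = 0.0407), and Tubb6, at 0.22 (adjusted p = 0.0431), each lost the call in several alternatives, with adjusted p up to 0.123 and 0.122.

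Other intermediate filament genes of the lists are given beside Nes by their own values. Synm, which encodes synemin, a partner of nestin and vimentin, rose from 12.5, 13.6 and 15.4 CPM in siCtrl to 30.7, 29.9 and 32.4 CPM in siRSL24D1 (log2 fold change 1.17, adjusted p = 4.5e-05). Vim rose by 0.62 (adjusted p = 0.000159), Nefh by 0.98 (adjusted p = 7.9e-05), Nefl by 0.63 (adjusted p = 0.00369) and Ina by 0.36 (adjusted p = 0.00662). Nefm was at 0.36 (adjusted p = 0.107), and Gfap, the filament of astrocytes, at 0.35 (adjusted p = 0.302). These genes were put side by side after their values were seen, so no count over them is given.

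**Figure D4:**
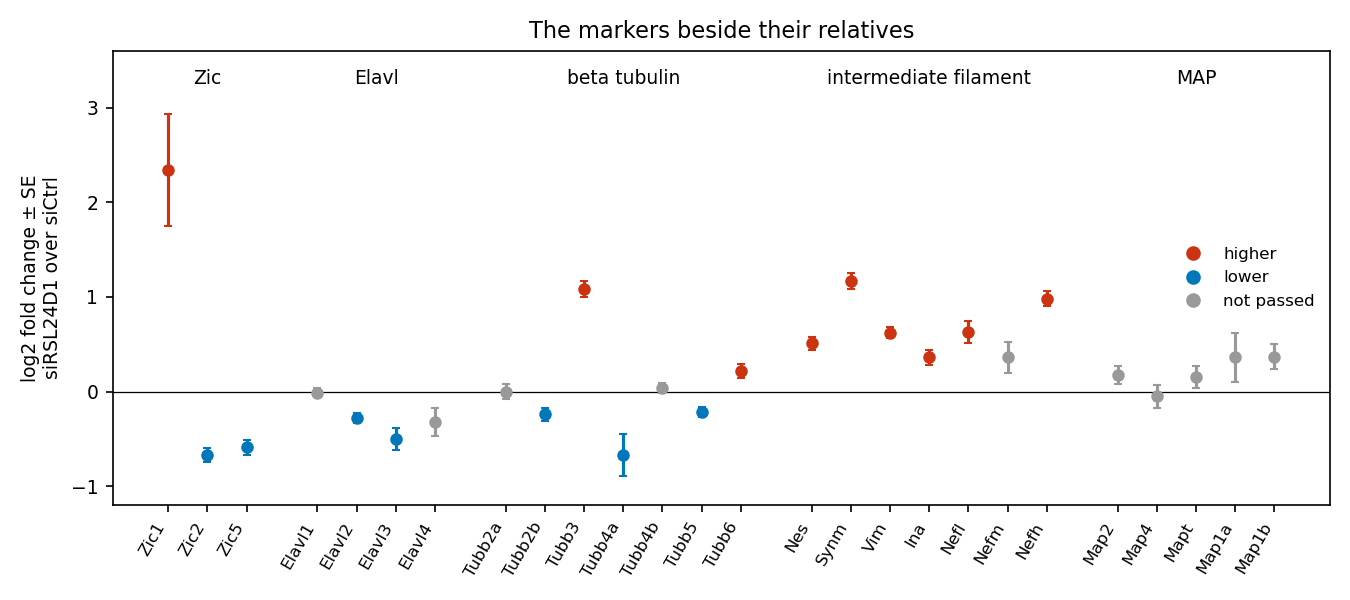
Log2 fold change, siRSL24D1 over siCtrl, with its standard error (vertical axis) for the markers Zic1, Elavl3, Tubb3, Nes and Map2 beside related genes of the lists, coloured by the test. Tubb3 is at 1.08 among beta tubulins between -0.67 and 0.22, and Zic1 is at 2.34 beside Zic2 at -0.67.

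Beyond the 9 markers, 144 other neural genes in 10 lists were followed. Of 113 tested, 33 rose, 24 fell and 56 did not pass. The share that passed was 50.4%, against 41.2% of all genes tested, and the median log2 fold change was 0.11, against 0.02. Of the 113 tested, 7 were at least 2-fold higher, against 2.33% of all genes tested, and 1 (Hesx1) was at least 2-fold lower, against 1.86%. The lists are described one by one, each by its counts. The share that passed was 88.9% for progenitor proteins, 64.3% for neural plate and progenitor transcription factors and 61.5% for adhesion and guidance genes. It was 55.6% for cytoskeletal and growth cone genes, 41.7% for Notch genes and 38.5% for REST with its corepressors. For synaptic and secretory genes and for broadly expressed relatives it was 37.5% each, and for RNA-binding genes 30%. Each stands against 41.2% of all genes tested.

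Other bHLH factors of the proneural list, of which only some act before Neurod1, were almost absent. The 11 genes of the list together had 16, 11 and 18 counts in siCtrl 1 to 3 and 22, 20 and 17 counts in siRSL24D1 1 to 3. No single gene had more than 7 counts in a library, Neurod6 had none in any, and none of the 11 passed the filter. A count of 0 allows up to 0.0855 to 0.0956 CPM per library. Differences in Neurog1 or Neurog2 were thus not detectable at this depth, where Neurod1 had 86 to 92 counts per siCtrl library.

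Of 14 tested neural plate and progenitor transcription factors (24 listed), 5 rose, 4 fell and 5 did not pass, at a median of 0.39. En2, an engrailed factor of the mid-hindbrain region, rose by 1.35, Sox21, a progenitor factor, by 1.04, and Gbx2, a hindbrain and pluripotency factor, by 0.85. Hesx1, a forebrain homeobox gene, fell from 0.703 ± 0.115 to 0.213 ± 0.072 CPM (log2 fold change -1.72, adjusted p = 0.00314). It had 27, 23 and 20 counts in siCtrl and 9, 5 and 7 in siRSL24D1. Hesx1 thus passed the filter on low counts only through siCtrl and could not have been called higher. Otx2, a forebrain and primed-state factor, fell by 0.49 (adjusted p = 0.000286). The number that rose was 3 without siCtrl 1 or siCtrl 2 and 7 without siCtrl 3, and the median ran from 0.24 without siCtrl 1 to 0.73 without siCtrl 3. Neural progenitor proteins were split, with 4 of 9 higher and 4 lower. Their median was -0.15, and it changed sign without siCtrl 3 (0.02) and with siRSL24D1 2 left out as well (0.06). Besides Synm and Vim, Cdh2 (N-cadherin) rose by 0.85, while Slc1a3, a glutamate transporter of radial glia, fell by 0.53.

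Among 18 tested cytoskeletal and growth cone genes, 8 rose, 2 (Stmn2 and Tubb2b) fell and 8 did not pass, at a median of 0.32. Stmn4, a stathmin, rose by 1.03, Gap43, a growth cone protein, rose from 17.5, 15.98 and 14.7 CPM in siCtrl to 24.0, 32.7 and 27.1 CPM in siRSL24D1 (log2 fold change 0.80, adjusted p = 0.00114), and Dpysl3 rose by 0.74. Stmn2, a target of REST in other cells, was at 128 ± 1.91 CPM in siCtrl and fell by 0.31. Stmn2 kept its call in all 17 alternatives, and Tubb2b lost it without siCtrl 1, siCtrl 2, siRSL24D1 1 or siRSL24D1 3.

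Of 13 tested adhesion and guidance genes, 7 rose, 1 (Nfasc) fell and 5 did not pass, at a median of 0.41 (0.62 without siCtrl 3 and siRSL24D1 2). Chl1, an L1 family adhesion molecule, rose from 0.484, 0.399 and 0.469 CPM in siCtrl to 1.85, 1.65 and 2.05 CPM in siRSL24D1 (log2 fold change 2.02, adjusted p = 0.000154). Nrp1, a semaphorin and VEGF co-receptor, rose by 1.42 (adjusted p = 2.2e-05), Dscam by 1.30 (adjusted p = 0.00274) and Nrcam by 0.67 (adjusted p = 0.000218). Without siRSL24D1 2 or siRSL24D1 3 Nfasc no longer passed.

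Of 16 tested synaptic and secretory genes, 5 fell, 1 (Vgf) rose and 10 did not pass, at a median of -0.21 (-0.13 without siCtrl 3). The share that passed was 37.5%, against 41.2% of all genes tested. Unc13a, a priming factor of synaptic vesicles, fell from 5.51, 6.05 and 7.41 CPM in siCtrl to 3.63, 3.36 and 2.98 CPM in siRSL24D1 (log2 fold change -0.93, adjusted p = 0.00131). Syt1, the calcium sensor of vesicle release, fell by 0.76. Cplx1 was at -0.95 (adjusted p = 0.0429) and lost its call in 9 alternative settings, 5 of the 6 runs without 1 library among them. Vgf, a secreted neuropeptide precursor, rose by 0.91. The number that fell was 3 without siCtrl 1, siRSL24D1 1 or siRSL24D1 2 (where 2 rose), by DESeq2 and under a filter of at least 1 CPM. With both siCtrl 3 and siRSL24D1 2 left out, 3 rose and 3 fell.

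Neuronal RNA-binding proteins control the splicing and stability of neuronal transcripts, and Notch signalling holds progenitors back from differentiation. Of 10 tested RNA-binding genes 2 rose (Celf5 by 0.59 and Rbfox1), 1 (Elavl2) fell and 7 did not pass, at a median of 0.30 (0.15 without siCtrl 1). Rbfox1 was at 1.00 (adjusted p = 0.034), with adjusted p between 0.0675 and 0.121 in the 5 settings that ended its call, which were DESeq2 and runs without siCtrl 1, siCtrl 2, siRSL24D1 1 or siRSL24D1 3. Of 12 tested Notch genes 4 rose, 1 (Dll3) fell and 7 did not pass. The 41.7% that passed lay close to the 41.2% of all genes tested. The ligands Dll1, Jag1 and Jag2 rose by 0.73, 0.63 and 0.46, and Numb, an inhibitor of Notch signalling, rose by 0.21. Without siRSL24D1 2 the RNA-binding genes that rose were 4, and with siCtrl 3 left out as well they were 4 beside 7 Notch genes. Dll3 lost its call (adjusted p = 0.052 to 0.0875) by DESeq2 and in the runs that left out siCtrl 1, siCtrl 2, siRSL24D1 1 or siRSL24D1 3.

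REST, the repressor of neuronal genes in cells that are not neurons, averaged 354 ± 15.04 CPM in siCtrl against 323 ± 8.55 CPM in siRSL24D1 (SD, n = 3). Its log2 fold change was -0.13 (adjusted p = 0.0443), and the call was lost in all 6 runs without 1 library and with library totals as the scaling (adjusted p = 0.0592 to 0.114). Of its 13 listed genes with corepressors 38.5% passed, against 41.2% of all genes tested. Among them 4 (Rest, Kdm1a, Sin3a and Ehmt2) fell and 1 (Rcor2) rose, all by less than 0.2 on the log2 scale. These small calls depended on single libraries: the number that fell was 1 without siCtrl 1 or siRSL24D1 1, 2 without siRSL24D1 2, 0 without siCtrl 2 or siRSL24D1 3, and 2 with library totals as the scaling.

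**Figure D5:**
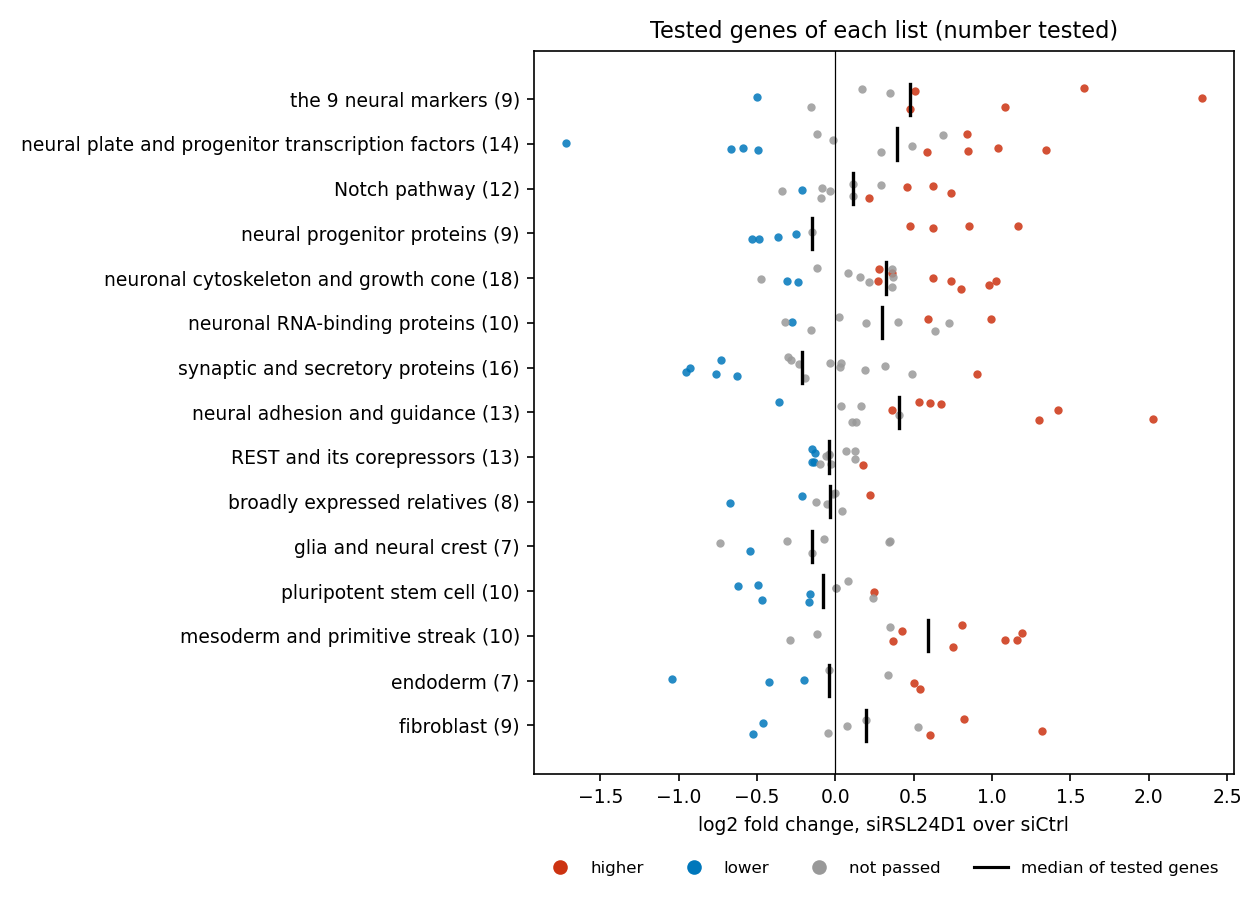
Log2 fold change, siRSL24D1 over siCtrl (horizontal axis), of every tested gene in each list (1 point a gene, coloured by the test, vertical scatter without meaning), with the number tested in parentheses and a black tick at the median. The median lies at 0.48 for the 9 markers, at 0.41 for adhesion and guidance genes and at -0.21 for synaptic and secretory genes.

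Markers of other cell types moved in the same libraries. The share that passed was 70% for mesoderm and primitive streak genes and 71.4% for endoderm genes. It was 55.6% for fibroblast genes and 14.3% for glia and neural crest, against 41.2% of all genes tested. Of 10 mesoderm and primitive streak genes 7 rose and 3 did not pass, at a median of 0.59, and their summed level was 145 to 155 CPM in siCtrl and 196 to 212 CPM in siRSL24D1. Mixl1 rose by 1.19, Tal1 by 1.16 and Kdr by 1.08. Of 9 tested fibroblast genes 3 (Acta2, Tagln and Col3a1) rose, 2 (Col1a2 and Pdgfrb) fell and 4 did not pass, with a summed level of 459 to 464 CPM in siCtrl and 686 to 817 CPM in siRSL24D1. Acta2 and Tagln, which encode contractile proteins, were highest in siRSL24D1 2, at 184 and 509 CPM, the library in which Nes and Tubb3 were highest too.

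Of 7 tested endoderm genes 2 (Gata4 and Gata6) rose, 3 (Cer1, Dab2 and Pdgfra) fell and 2 did not pass, with a summed 46.7 to 49.3 CPM in siCtrl and 39.4 to 44.1 CPM in siRSL24D1. Both rises were lost without siCtrl 2 and by DESeq2, and that of Gata6 also without siCtrl 1, siCtrl 3, siRSL24D1 1 or siRSL24D1 3. The fall of Pdgfra was lost in 5 of the 6 runs without 1 library, all but that without siRSL24D1 1, and by DESeq2 and library totals (adjusted p = 0.0565 to 0.139). Of 7 tested genes of glia and neural crest 1 (Mbp, at -0.54) fell and 6 did not pass, 2 fell without siCtrl 3, and the list summed to 40.4 to 41.9 CPM in siCtrl and 32.8 to 34.7 CPM in siRSL24D1. No gene of these 4 lists was at 0 in all libraries, though S100b was at 0 in every siCtrl library. The part of these cell types in the values of the 9 markers was not tested.

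The genes whose profile over the 6 libraries was most like that of a marker were found by the root mean square distance of mean-centred log2 CPM, among 12112 named genes. Nearest to Neurod1 were Cdx2, Scn3b and Pak6, at 0.10, 0.11 and 0.12 log2 units. Nearest to Tubb3 were Fas, Man2b1 and Nefh, at 0.05, 0.06 and 0.07. Nearest to Elavl3 were Zfp382, Rps6ka5 and Fam198b, at 0.04, 0.04 and 0.05. All points share the 2 groups and the same libraries, so the distance describes likeness in these 6 libraries only.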

How the data were processed

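RNA of 6 libraries was measured by sequencing with a stranded total RNA kit, per the labels' protocols. The values are estimated counts for each gene symbol as deposited, with library totals that differ. STAR 2.7.0f, Salmon 0.14.1 and the build GRCm38 are named in the submitters' processing notes. The roles of these tools, the annotation and the strand setting were not given in the sources used here. Fractional values made up 21.59% to 22.65% of each library (tolerance 1e-09). The tests were planned for counts, and the values were rounded first.

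Genes were kept by filterByExpr (minimum count 10, minimum total 15), scaled by TMM and tested with edgeR 4.0.16 (two-sided quasi-likelihood test, glmQLFit with glmQLFTest; R 4.3.3) over 15084 genes with 1 Benjamini-Hochberg adjustment. Standard errors are the log2 fold change over the square root of F. The fit was also run on simulated counts with few changed genes and no outlying library. Those settings differ from these data, so that run is no support for the calls. Exon lengths and positions are from GENCODE M21. Members, lists and tests were chosen with earlier results of these data known. The text names all markers, Rsl24d1, up to 4 called genes with the largest change in each list and the 3 nearest profiles of 3 markers; other genes were named after their values were seen. Some listed genes enter the counts and are not reported here by name. Alternatives were other scalings and filters, DESeq2 1.42.0, limma-voom (limma 3.58.1), the replicate number as a block, an adjusted p under 0.01, and leaving out each library. Unrounded values, a loess correction for exon length and leaving out siCtrl 3 with siRSL24D1 2 were added after seeing the data.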

Additional observations from a re-analysis of the deposited data

How the results depend on the processing

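Over 17 alternatives each at an adjusted p under 0.05, Neurod1, Tubb3, Nes and Elavl3 kept their direction and their call. Zic1 was higher over 16 and was not tested under the filter of at least 1 CPM. Except in the run with no filter (adjusted p = 0.0171 by edgeR), Zic1 entered only through siRSL24D1. A lower call of Zic1 could not have arisen there, so its kept direction adds nothing. Sox1 and Pax6 did not pass in any. Without 1 library in turn, 4 to 6 markers were higher and 1 was lower, and 27 to 39 other neural genes were higher and 16 to 21 lower. At an adjusted p under 0.01, 3 markers were higher and 0 lower, and 13 other neural genes were lower; at an unadjusted p under 0.05, 1 marker was lower by edgeR, DESeq2 and limma-voom alike. With siCtrl 3 and siRSL24D1 2 left out, 48 other neural genes were higher and 24 lower, against 33 and 24 with all libraries. Over all genes the same run called 3986 higher and 4008 lower of 15115, against 3191 and 3021 of 15084.

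The replicate numbers were not treated as pairs: deviations of same-numbered libraries correlated at -0.22, 0.14 and 0.17 over 15084 genes, and siCtrl 1 was closest to siRSL24D1 2 (0.34). With the replicate number as a block, 5 markers were higher and 1 lower, and 35 other neural genes were higher and 22 lower. Depth limits Zic1 and the proneural factors.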
